A study of Homo sapiens with 6 samples.

Results

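Glutathione is made, refilled and used by a small set of enzymes and transporters, and 10 of their genes were followed here in prostate epithelial cells before and after transformation by arsenite. The genes were listed by name: the synthesis enzymes GCLM, GCLC and GSS, the reductase GSR, the cystine transporter chains SLC7A11 and SLC3A2, the surface peptidase GGT1, and the peroxidases GPX1, GPX2 and GPX4. Each was represented by its brightest array feature annotated with 1 gene symbol. Such a feature was found for 9 of the 10 genes, among 18417 genes with a value in all, and GGT1 was not analysed here because no feature was listed for it in the annotation used.

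The samples were 6 cell line RNAs, each hybridised to 1 single-colour expression array. RWPE-1 is a non-tumorigenic human prostate epithelial line, immortalised with a papillomavirus, and its 3 arrays came from untreated cells at passages 18, 38 and 42. CAsE-PE is the malignant line that arose when RWPE-1 was grown without interruption in 5 µM sodium arsenite, and its 3 arrays came from cells after 30, 33.5 and 35 weeks of exposure. Both lines grew in a keratinocyte serum-free medium with pituitary extract and epidermal growth factor. CAsE-PE is 1 transformed line, the labels give no passage for its cells, and they do not tell whether the passages or the weeks came from cultures kept apart. The p-values below therefore rest only on how far these arrays differ, which may be technical. Arsenite was present up to the time each exposed culture is labelled with, so exposure and transformation cannot be told apart.

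Glutathione is a tripeptide of glutamate, cysteine and glycine that keeps the cell's thiols reduced and binds trivalent arsenic. Its synthesis is limited by glutamate-cysteine ligase, a catalytic subunit (GCLC) with a modifier subunit (GCLM), and by cysteine, much of which enters as cystine through the exchanger formed by SLC7A11 and its heavy chain SLC3A2. Among the genes of synthesis and cystine uptake, GCLM, GCLC and SLC7A11 are classic targets of NRF2, a transcription factor that acts at antioxidant response elements. SLC7A11 is also a target of ATF4, which responds to amino acid shortage.

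Array medians lay between 91.7 and 97.2 intensity units. Log2 values over all genes correlated at 0.985 to 0.995 between arrays of a group and at 0.956 to 0.969 between groups. The basal keratin KRT5 had log2 levels of 11.80 to 12.10 over the arrays, whereas KRT14 (−1.60, SE 0.31) and KRT15 (−1.77, SE 0.34), both basal keratins, were lower in CAsE-PE (limma adjusted p = 0.00748 and 0.00714). Of 5 basal markers measured these 2 were called, and the basal integrins ITGA6 (−0.21, SE 0.13) and ITGB4 (0.16, SE 0.09, with the 3 CAsE-PE arrays above) did not pass. Of 4 luminal markers 0 were called in either direction (0 higher and 1 lower at an unadjusted p under 0.05), with KRT8 at 0.09, KRT18 at 0.04, ACP3 at 0.07 and KLK3 at −0.25. The basal factor TP63 had no value here. The log2 summed intensity of 6 fibroblast markers was 8.84 to 8.95 in RWPE-1 and 8.82 to 8.91 in CAsE-PE, and that of 3 endothelial markers was 7.27 to 7.51 and 7.20 to 7.36. Of the 6 fibroblast markers, 1 was called lower, PDGFRB (−0.32, SE 0.09, limma adjusted p = 0.0479), and 0 higher. DCN (0.52, SE 0.24, adjusted p = 0.163) did not pass, and 0 of the 3 endothelial markers were called. For 4 leukocyte markers the log2 summed intensity was 10.21 to 10.50 in RWPE-1 and 9.31 to 9.86 in CAsE-PE. Of the 4, 2 were called lower, CD68 (−0.89, SE 0.16, adjusted p = 0.00516), which epithelial cells also express, and CD14 (−0.43, SE 0.11, adjusted p = 0.0262). The defining gene PTPRC was at log2 levels of 3.73 to 3.99 on all arrays. No marker was at 0, and without detection calls a low value cannot be told from background. The part of other cell types in the results below was not tested, and in bulk RNA fewer cells of a type and less RNA per cell cannot be told apart.

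The starts of the genes are shown first, because the transcription factors named above act through short DNA sequences, which may lie there. Sequences outside the windows below were not searched, so a gene without a match may have one elsewhere. RefSeq windows from 250 bases before to 50 after a gene start (assembly GRCh38.p14) were found for 7 of the 10 genes, in 12 windows, since SLC3A2 and GPX4 have 3 starts each and GGT1 has 2. GSS, GSR and SLC7A11 had none in the table used. The core of the antioxidant response element, TGACNNNGC on either strand, was present in 4 of the 12 windows, against 13.3% of all 34943 windows. It lay in the windows of GCLM, GPX2, 1 of 3 SLC3A2 starts and 1 of 2 GGT1 starts. The GCLC window held none within these bases, but a TATA box (TATAAA) from base −29 to base −24, a motif in 11.6% of all windows. The sequences before the start of GCLM and GPX2, the part of SLC3A2 around its match and the sequence before GCLC are printed 5′ to 3′ along the gene, with the response element core, or in GCLC the TATA box, in capitals.
GCLM (250 bases before the start, chr1:93909431-93909680, minus strand): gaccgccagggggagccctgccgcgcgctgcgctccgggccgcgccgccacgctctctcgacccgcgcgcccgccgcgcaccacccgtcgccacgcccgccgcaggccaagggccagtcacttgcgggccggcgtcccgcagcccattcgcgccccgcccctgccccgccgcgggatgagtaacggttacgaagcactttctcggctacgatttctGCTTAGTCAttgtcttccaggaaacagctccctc
GPX2 (250 bases before the start, chr14:64942746-64942995, minus strand): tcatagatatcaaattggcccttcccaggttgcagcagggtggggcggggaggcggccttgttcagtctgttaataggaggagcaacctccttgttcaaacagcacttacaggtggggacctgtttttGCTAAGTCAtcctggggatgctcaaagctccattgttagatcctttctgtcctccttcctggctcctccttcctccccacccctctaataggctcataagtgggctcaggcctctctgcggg
SLC3A2 (29 bases around the match, chr11:62881652-62881680, plus strand): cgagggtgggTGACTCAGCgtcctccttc
GCLC (250 bases before the start, chr6:53545102-53545351, minus strand): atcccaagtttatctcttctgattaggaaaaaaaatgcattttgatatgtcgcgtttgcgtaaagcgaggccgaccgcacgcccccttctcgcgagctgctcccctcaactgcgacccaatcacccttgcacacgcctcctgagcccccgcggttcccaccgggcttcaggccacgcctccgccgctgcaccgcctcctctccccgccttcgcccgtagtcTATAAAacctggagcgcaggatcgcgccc

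In GCLM the core reads TGACTAAGC on the strand opposite to the gene, from base −34 to base −26, and in GPX2 it reads TGACTTAGC on the opposite strand, from base −122 to base −114. In SLC3A2 it reads TGACTCAGC on the gene's strand, from base −37 to base −29, and there it overlaps a match to the AP-1 motif, TGACTCA or TGAGTCA, which 4.96% of all windows held. The GC box GGGCGG was in 10 of the 12 windows and in 44.9% of all. The 12 windows are not separate genes: SLC3A2 and GPX4 gave several, and overlapping GPX4 windows held the same GC box. The C/EBP-ATF motif TGATGCAA was in 0 of the 12 and in 0.87% of all. With a motif that rare, and no window for SLC7A11, this 0 tells nothing about ATF4 sites in these genes. All the motif matches are matches of letters only, and the arrays give no measure of what binds there.

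In all, 3 genes of the set rose in CAsE-PE: the cystine transporter chain SLC7A11, the ligase modifier GCLM and the synthetase GSS. GCLM was 3.0-fold higher, SLC7A11 2.74-fold and GSS 1.62-fold (n = 3 arrays per group). No member fell in the fit of all arrays, and the other 6, among them the catalytic subunit GCLC, the recycling enzyme GSR, the heavy chain SLC3A2 and the peroxidases, did not pass the threshold. In the whole data set 9.04% of genes were called higher and 8.71% lower (limma, Benjamini-Hochberg adjusted p under 0.05 over all genes), against 3 higher and 0 lower of 9 here. At an unadjusted p under 0.05 the numbers were 4 higher and 0 lower of 9, beside 2780 higher and 3183 lower of all 18417 genes. All 9 were among the brighter genes, at percentiles 58.6 to 99.1 of mean log2 level. The share called among genes of like brightness was not counted. The median difference of the 9 genes was 0.12 on the log2 scale, beside −0.06 over all genes. A positive difference means a higher log2(intensity + 1) in CAsE-PE, and SE is the standard error of the fit.

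**Figure D1:**
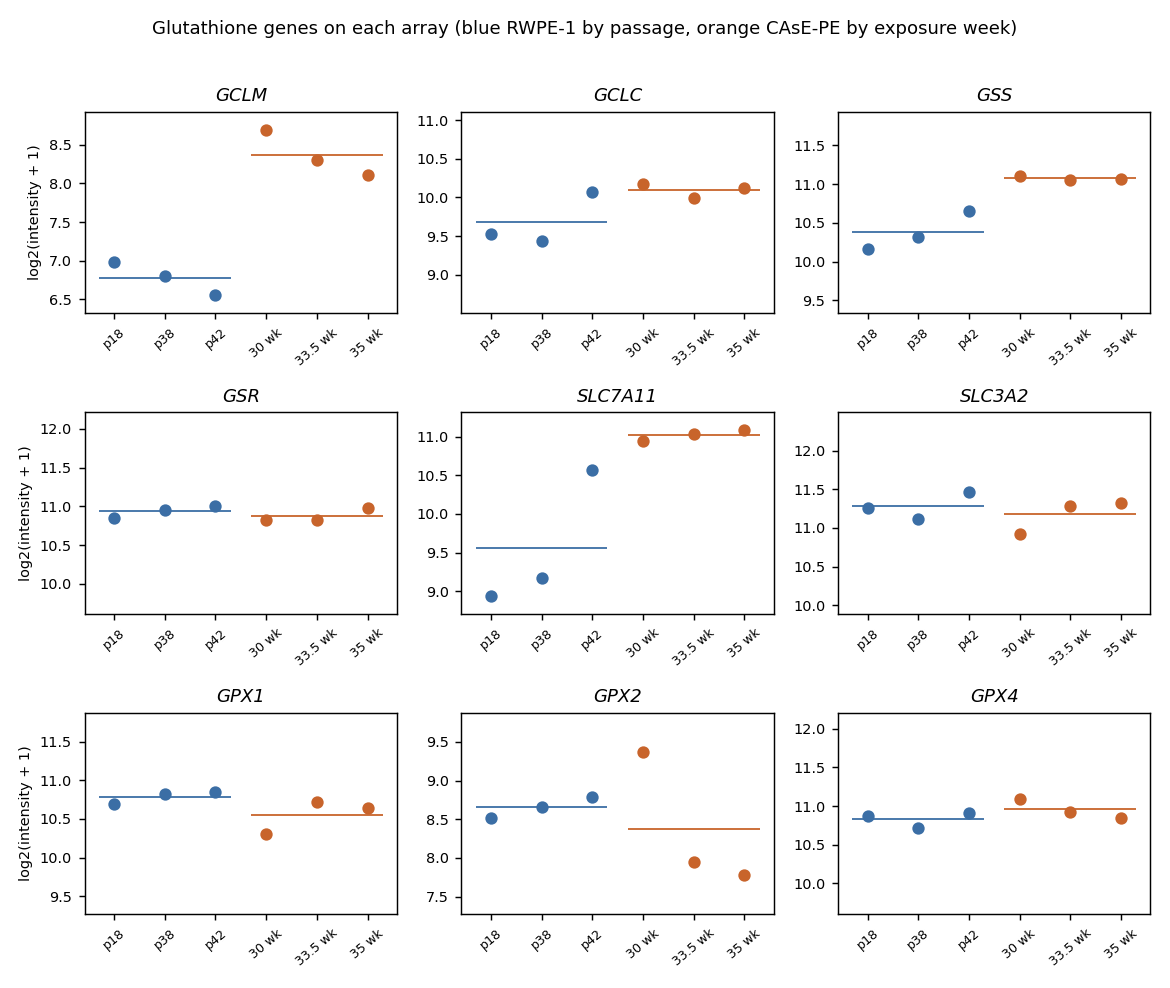
Level of each of the 9 measured glutathione genes on each array. The y axis is log2(intensity + 1), with a span of equal size in every panel, and the x axis gives RWPE-1 passage (blue) or CAsE-PE exposure week (orange), with lines at the group means. The orange points lie above all blue points for GCLM, GSS and SLC7A11, and the passage 42 point of SLC7A11 lies close to the orange points.

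GCLM, the modifier subunit that raises the activity of the ligase, had in untreated cells an intensity of 126 at passage 18, 111 at passage 38 and 93 at passage 42. In CAsE-PE its intensities were 411, 315 and 275 at 30, 33.5 and 35 weeks. Every exposed array lay well above every unexposed one, and the 30-week array was the highest. The log2 mean went from 6.78 ± 0.22 (SD) to 8.37 ± 0.29, a difference of 1.59 (SE 0.17, 95% interval 1.21 to 1.96, adjusted p = 0.000316). Among all genes, 16.1% had their 3 CAsE-PE arrays above the 3 RWPE-1 arrays, as 3 of the 9 genes here did, and 22.8% had them below, as 0 of the 9 did. The call held in each of 16 alternative fits, with differences of 1.43 to 1.71.

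GCLC, the catalytic subunit that joins glutamate to cysteine, had intensities of 739, 690 and 1072 in RWPE-1 and of 1155, 1014 and 1112 in CAsE-PE. The passage 42 array lay inside the range of the exposed arrays, so the groups overlapped. Its difference of 0.42 (SE 0.16, 95% interval 0.05 to 0.78) did not pass the threshold (limma adjusted p = 0.113). Without the passage 42 array it was 0.61 and passed (adjusted p = 0.00829), as it did with array weights (0.57, adjusted p = 0.00574). With the median shift of its 24 neighbouring genes taken off it was 0.27 (adjusted p = 0.283).

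The subunits were also compared within each array, a comparison chosen after their values were seen. The log2 difference GCLM minus GCLC was −2.55, −2.63 and −3.51 in RWPE-1 and −1.49, −1.68 and −2.01 in CAsE-PE. The modifier gained on the catalytic subunit by 1.17 on the log2 scale, and the groups did not overlap. The exact permutation test gave p = 0.1 (two-sided), the smallest that 3 against 3 arrays allow. Without the passage 42 array the gain was 0.86, and without the passage 18 array 1.34.

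GSS, glutathione synthetase, adds glycine in the last step of synthesis. Its intensities were 1143, 1276 and 1605 in RWPE-1 and 2199, 2128 and 2135 in CAsE-PE. The exposed arrays were nearly equal to each other and all above the unexposed ones. The log2 mean went from 10.38 ± 0.25 to 11.07 ± 0.03 (difference 0.70, SE 0.13, 95% interval 0.40 to 0.99, adjusted p = 0.00654). Its neighbours on chromosome 20 were shifted by 0.23, and with that taken off GSS differed by 0.47 (adjusted p = 0.0416).

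SLC7A11, the light chain that carries cystine in exchange for glutamate, had an intensity of 491 at passage 18, 578 at passage 38 and 1516 at passage 42. In CAsE-PE its intensities were 1966, 2095 and 2165 at 30, 33.5 and 35 weeks. The groups did not overlap, but the passage 42 array stood nearer to the exposed arrays than to the earlier passages. The log2 means were 9.56 ± 0.88 and 11.02 ± 0.07, a difference of 1.46 (SE 0.35, 95% interval 0.67 to 2.24, adjusted p = 0.0197). Without the passage 42 array the difference was 1.96 and remained past the threshold. The adjusted p rose above the threshold when the array of passage 18 (1.15, adjusted p = 0.0559), passage 38 (1.26, 0.0803), 33.5 weeks (1.45, 0.0513) or 35 weeks (1.43, 0.0654) was left out.

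SLC3A2, the heavy chain that anchors SLC7A11 and several other amino acid transporters in the membrane, did not pass the threshold. Its intensities were 2456, 2222 and 2824 in RWPE-1 and 1940, 2501 and 2559 in CAsE-PE, and the groups overlapped. The difference was −0.10 (SE 0.14, 95% interval −0.42 to 0.21, adjusted p = 0.635), and its sign turned without the 30-week array (0.024) and with array weights (0.067). Within each array, SLC7A11 minus SLC3A2 was −2.32, −1.94 and −0.90 in RWPE-1 and 0.02, −0.26 and −0.24 in CAsE-PE. The light chain gained on the heavy chain by 1.56 on the log2 scale, again without overlap and chosen after the values were seen (exact permutation test, two-sided p = 0.1, the smallest possible). With 1 array left out the gain was 1.26 to 1.97.

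GSR, which reduces oxidised glutathione back with NADPH, had intensities of 1852, 1985 and 2058 in RWPE-1 and of 1808, 1818 and 2019 in CAsE-PE. The groups overlapped and the difference was −0.06 (SE 0.10, 95% interval −0.29 to 0.16, adjusted p = 0.691). An increase of the size seen for GSS lies outside this interval. The sign of the GSR difference turned after removal of its neighbours' shift (0.065).

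**Figure D2:**
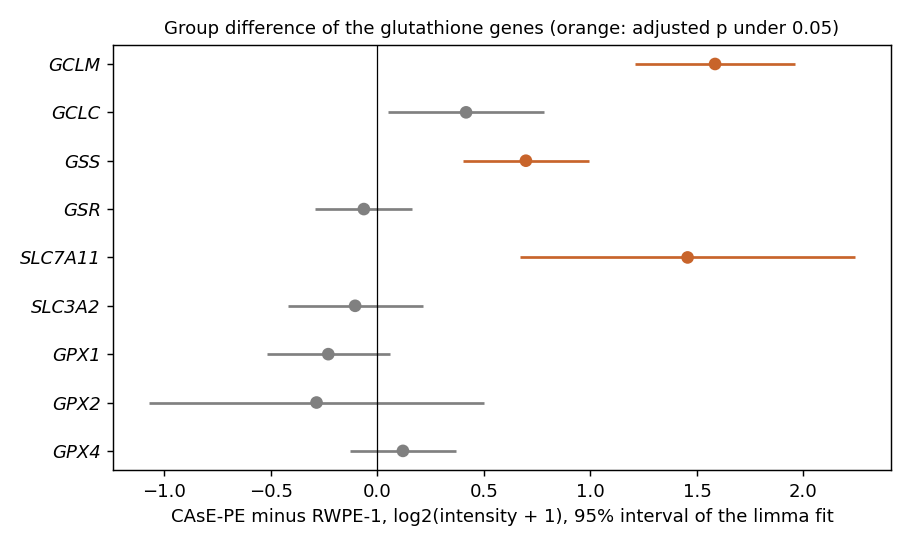
Difference between the groups for each gene. The x axis is CAsE-PE minus RWPE-1 of log2(intensity + 1), bars are 95% intervals of the limma fit over 3 arrays per group, and genes with an adjusted p under 0.05 are orange. GCLM (1.59), SLC7A11 (1.46) and GSS (0.70) are orange, and GPX2 has the widest interval among the grey genes (−1.07 to 0.50).

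Among the glutathione peroxidases, which use glutathione to reduce peroxides, GPX2 varied most of the 9 genes among the exposed arrays (SD 0.87), and GPX1 and GPX4 did not pass any test of all arrays. GPX2, the gastrointestinal and epithelial form, had intensities of 366, 402 and 441 in RWPE-1. In CAsE-PE it was at 661 at 30 weeks and at 247 and 219 at 33.5 and 35 weeks. The 30-week array was above all RWPE-1 arrays and both later arrays were below them. The group means of 8.65 ± 0.13 and 8.37 ± 0.87 differed by −0.29 (SE 0.35, adjusted p = 0.599), whereas without the 30-week array GPX2 was called lower (−0.79, SE 0.12, adjusted p = 0.00339), and without the 35-week array the difference was 0.0087.

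In a second limma model with passage and exposure week as terms, GPX2 was the 1 member with a slope over weeks past the threshold, at −0.33 log2 units per week (SE 0.04, adjusted p = 0.0199). Such a slope was called for 0.25% of all genes. It rests on 3 arrays, 1 per week, so that week and array cannot be told apart, and on the first of them: without the 30-week array the slope was −0.12 per week (adjusted p = 1.00). The pattern of 30 weeks above and both later weeks below all RWPE-1 arrays was shared by 264 genes, 1.43% of all, and was looked for after GPX2 was seen. GCLM had a slope of −0.11 per week (SE 0.04, adjusted p = 0.264), which did not pass.

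GPX1, the abundant cytosolic peroxidase, had intensities of 1657, 1809 and 1835 in RWPE-1 and of 1260, 1690 and 1599 in CAsE-PE. The 30-week array was the lowest of the 6, and the groups overlapped narrowly. The difference was −0.23 (SE 0.13, 95% interval −0.52 to 0.06, adjusted p = 0.247). Without the 30-week array it was −0.10 (adjusted p = 0.556). A second feature of GPX1 differed by −0.16 (SE 0.10).

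GPX4, which reduces lipid peroxides in membranes and protects from ferroptosis, had intensities of 1879, 1679 and 1931 in RWPE-1 and of 2188, 1939 and 1845 in CAsE-PE. The 30-week array was the highest of the 6, and the groups overlapped. The difference was 0.12 (SE 0.11, 95% interval −0.13 to 0.37, adjusted p = 0.477).

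Within RWPE-1, no member had a slope over passages past the threshold (0 of 9 by limma, against 0.0217% of all genes). At an unadjusted p under 0.05 it was 1 of 9, SLC7A11, and 1072 of all 18417 genes. The SLC7A11 slope was 0.50 log2 units per 10 passages (SE 0.17, adjusted p = 0.809). The step was between the last passages: passage 42 exceeded the mean of passages 18 and 38 by 1.51 in SLC7A11, by 0.59 in GCLC and by 0.41 in GSS, and GCLM was lower there by 0.34. With passage 18 or passage 38 left out the SLC7A11 slope passed (3.48 per 10 passages, adjusted p = 0.0202, and 0.68, adjusted p = 0.00628), but each of these fits sets 1 RWPE-1 array against 1 other, with the spread taken from the CAsE-PE arrays and from other genes, and adds no replicate of the step.

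Genes of glutathione turnover and cysteine supply went both ways at passage 42, and those named here were chosen after their values were seen. Passage 42 exceeded the mean of passages 18 and 38 by 1.81 in CHAC1 and 1.04 in CTH. In ANPEP (−1.12), CHAC2 (−0.84), SLC36A1 (−0.61) and CNDP2 (−0.54), of the same lists, it was lower. For ANPEP this was not a step at passage 42. Its log2 levels were 8.4, 7.1 and 6.6 at passages 18, 38 and 42, with the larger fall between passages 18 and 38. CHAC1, a cyclotransferase that degrades glutathione, had log2 levels of 7.13, 7.51 and 9.13 over the passages and of 9.30, 9.16 and 9.01 over the weeks. Its passage 42 array lay inside the range of the exposed arrays, as it did for CTH, which makes cysteine from cystathionine (5.79, 6.22 and 7.05, then 6.78, 7.44 and 7.46). Their differences of 1.23 (SE 0.42, adjusted p = 0.0749) and 0.87 (SE 0.30, adjusted p = 0.0759) did not pass, and both passed once passage 42 was left out (1.84 with adjusted p = 0.000337 and 1.22 with adjusted p = 0.0112). Without passage 18 they were 0.84 (adjusted p = 0.190) and 0.59 (adjusted p = 0.195), and CTH also passed without the 30-week array (1.10, adjusted p = 0.0373). With array weights CHAC1 (1.56, limma adjusted p = 0.00172) and CTH (1.16, adjusted p = 0.00195) passed as well. Under the remaining alternatives neither passed. SLC1A4, a transporter of neutral amino acids including cysteine, had levels of 6.33, 6.52 and 7.03, then 7.56, 7.28 and 7.44, and rose by 0.80 (SE 0.17, adjusted p = 0.0126). It missed the threshold when passage 38 was left out (0.75, adjusted p = 0.0567).

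**Figure D3:**
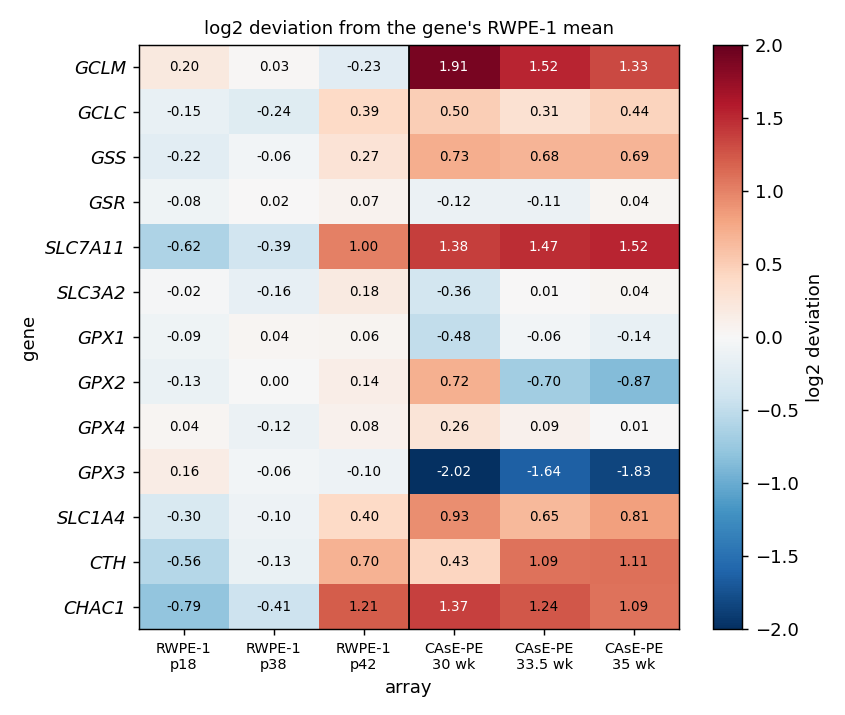
Deviation of each gene on each array (columns) from its own RWPE-1 mean, in log2 units, for the 9 members, GPX3, SLC1A4, CTH and CHAC1 (rows). Red is higher and blue lower, and the printed value is the deviation. At passage 42, SLC7A11 (1.00) and CHAC1 (1.21) are red while GCLM (−0.23) is not, and GPX2 goes from 0.72 at 30 weeks to −0.87 at 35 weeks.

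Of 12277 other genes outside the dimmest 33.3%, those most like GCLM over the 6 arrays were ZNF800, PITPNC1, FTO, TRIM16 and POLDIP3, with Pearson correlations of log2 values between 0.997 and 0.998. Those most like SLC7A11 were SLC6A9, NIT1, ERBB3, BLTP3A and KLF4, with correlations of 0.990 to 0.994. These are descriptions over 6 arrays that share the group difference, and 422 genes exceeded 0.95 with GCLM and 109 with SLC7A11.

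Other genes came from 6 lists around glutathione: its breakdown, cysteine and amino acid supply, peroxidases, transferases, glutaredoxins with glyoxalases, and selenocysteine insertion with related genes. They moved in both directions. Of 77 listed, 72 were measured, of which 10 were higher, 5 lower and 57 not called, with a median difference of −0.02. That is beside 9.04% called higher and 8.71% lower over all genes. Of 13 measured genes of the gamma-glutamyl cycle and glutathione breakdown, 0 rose (2 at an unadjusted p under 0.05) and 1 fell, GGACT (−0.45, SE 0.14, limma adjusted p = 0.0488), which breaks down gamma-glutamyl cross-link products. Its neighbours were shifted by −0.46, and after removal of that shift GGACT differed by 0.014 (adjusted p = 0.967). Of 13 cysteine supply genes, SLC1A4 rose and 0 fell (1 at an unadjusted p under 0.05).

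The remaining glutathione peroxidases were lower or not called. Of 5 measured, 2 fell and 0 rose (0 at an unadjusted p under 0.05), with a median of −0.33. GPX3, the secreted plasma form, had log2 levels of 9.71, 9.49 and 9.46 in RWPE-1 and of 7.53, 7.91 and 7.72 in CAsE-PE. All exposed arrays lay well below all unexposed ones, a difference of −1.83 (SE 0.13, adjusted p = 3.13e-05) that kept its call in each of 16 alternative fits. GPX7, of the endoplasmic reticulum, fell by 0.45 (SE 0.13, adjusted p = 0.0394), a call lost in 6 of 16 alternative fits (adjusted p = 0.133 without the passage 38 array).

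Glutathione transferases, which attach glutathione to foreign and internal compounds, held 4 rises and 1 fall among 20, with a median of −0.04. GSTK1, of mitochondria and peroxisomes, rose by 1.09 (SE 0.11, adjusted p = 0.000321), but its neighbours on chromosome 7 were shifted by 0.55, and with that taken off it differed by 0.54 (adjusted p = 0.0137). GSTM3 rose by 0.98 (SE 0.22, adjusted p = 0.0158), with 8.27, 7.51 and 7.73 over the weeks against 7.0, 7.13 and 6.44 over the passages. GSTZ1, of tyrosine breakdown, rose by 0.54 (SE 0.14, adjusted p = 0.0303), a call lost in 5 of 16 alternatives (adjusted p = 0.0977 without the passage 18 array), and the microsomal MGST2 rose by 0.51 (SE 0.12, adjusted p = 0.0180), lost in 4 of 16 (adjusted p = 0.0784 with its neighbours' shift taken off). GSTM1 fell by 1.16 (SE 0.29, adjusted p = 0.0255), lost in 3 of 16 (adjusted p = 0.0779 without the 35-week array). The GSTM genes are close copies of each other, which makes their separate values uncertain. GSTP1, the main transferase of many epithelia, had levels of 12.09 to 12.23 and 12.34 to 12.40, which did not overlap, and a difference of 0.21 (SE 0.09) that did not pass (adjusted p = 0.168).

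Glutaredoxins, which use glutathione to reduce protein disulphides, and glyoxalases, which use it to clear methylglyoxal, held 2 rises and 0 falls among 10 (0 lower also at an unadjusted p under 0.05 by limma). HAGH, the second glyoxalase enzyme, rose by 0.72 (SE 0.12, adjusted p = 0.00358), and the cytosolic glutaredoxin GLRX rose by 0.50 (SE 0.10, adjusted p = 0.00879). Both kept their calls in each of 16 alternative fits.

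GPX1, GPX2 and GPX4 contain selenocysteine, whose insertion needs its own machinery. Of 11 measured genes listed around it, not all of them particular to it, 3 rose and 1 fell, with a median of 0.18. SEPHS1, a selenophosphate synthetase family member, fell by 0.78 (SE 0.14, adjusted p = 0.00488), or by 0.43 after removal of its neighbours' shift. SECISBP2L, a relative of the SECIS-binding protein, rose by 0.59 (SE 0.10, adjusted p = 0.00506), but after removal of the 0.43 by which its neighbours were shifted the rise was 0.16 (adjusted p = 0.440). SECISBP2, which binds the selenocysteine signal in the messenger RNA, rose by 0.62 (SE 0.18, adjusted p = 0.0393), and the seryl-tRNA synthetase SARS1 rose by 0.54 (SE 0.15, adjusted p = 0.0318). Their calls were lost in 7 and 6 of 16 alternatives (adjusted p = 0.139 with neighbours taken off and 0.126 without the passage 38 array).

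**Figure D4:**
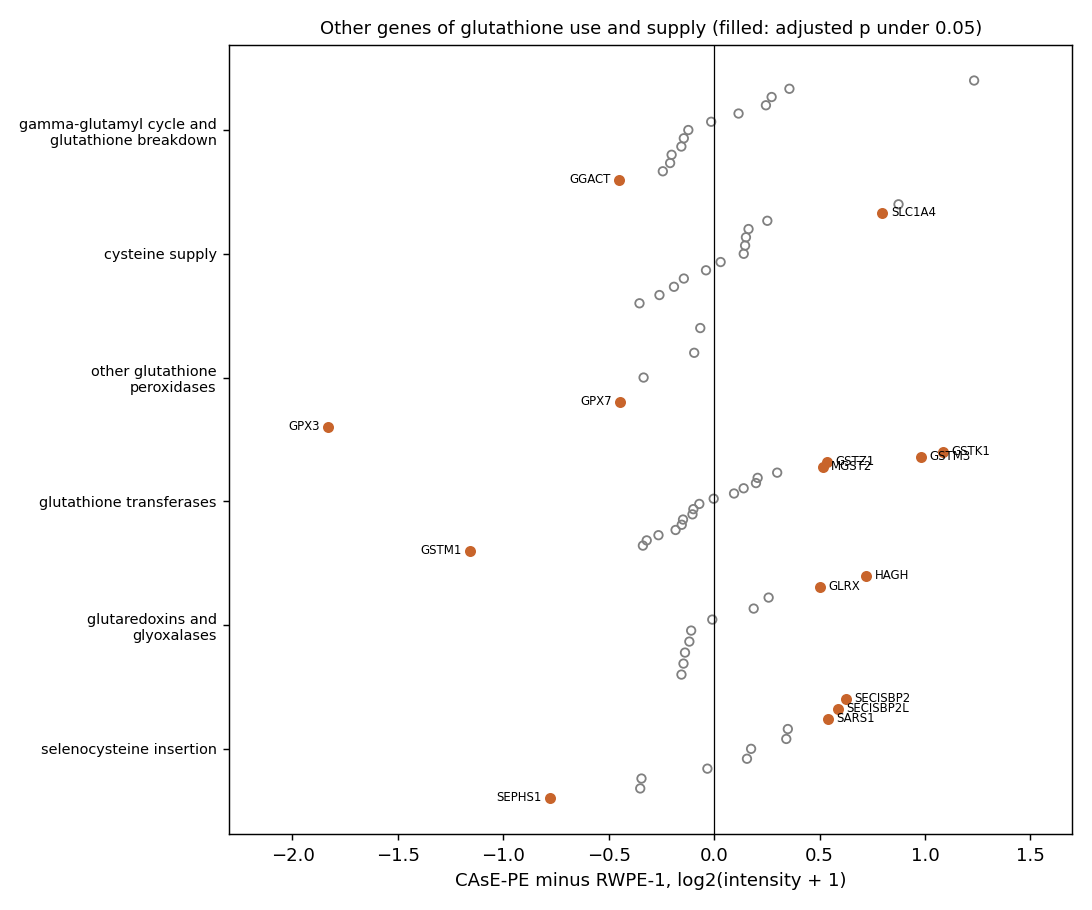
Group difference of 72 other genes of glutathione use and supply, by list. The x axis is CAsE-PE minus RWPE-1 of log2(intensity + 1), each point is a gene, and filled, named points have a limma adjusted p under 0.05. GPX3 (−1.83) lies farthest to the left, and the open point farthest to the right is CHAC1 (1.23).

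The dependence on single arrays differed from member to member. GCLM and GSS were called higher with any 1 array left out, at 1.43 to 1.71 and 0.59 to 0.83. SLC7A11 kept its direction at 1.15 to 1.96 but kept its call only without the passage 42 or the 30-week array. The number of members higher was 4 without the passage 42 array, when GCLC joined, and 2 without the passage 18, passage 38, 33.5-week or 35-week array. The number lower was 1 without the 30-week array, GPX2. The share of all genes called with an array left out was not counted, so these numbers have no background beside them.

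**Figure D5:**
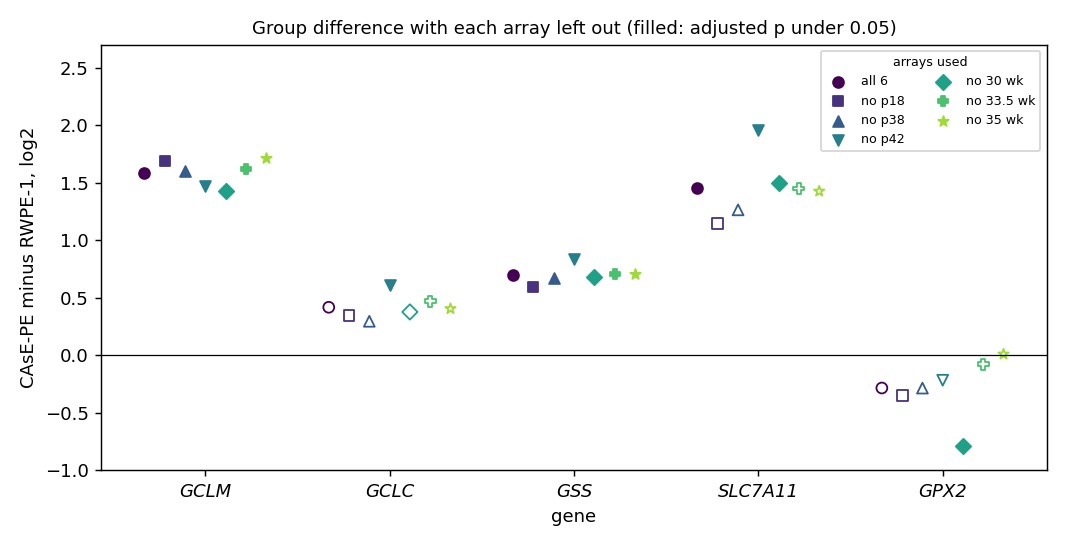
Group difference (y axis, CAsE-PE minus RWPE-1, log2 units) of 5 genes (x axis) with all 6 arrays and with each array left out, by symbol. Filled symbols have a limma adjusted p under 0.05. GCLM and GSS are filled throughout, GCLC is filled without passage 42, and GPX2 is filled, at −0.79, without the 30-week array.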

How the data were processed

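Per the labels' protocols, RNA came from Trizol and a Qiagen column, and an Ambion kit gave the biotinylated target. The deposited table holds an intensity for each feature on each array, on a scale judged linear from its range of 2.25 to 16617. How the authors corrected background and normalised is not given in the sources used here. Of 33252 features, 19460 had 1 gene symbol in the platform annotation, 1754 had several and 12038 had none or were not listed. Each of 18417 genes was represented by its brightest feature. Values were analysed as log2(intensity + 1), as foreseen for a linear table, so folds of dim genes are understated. The group difference was fitted in limma 3.58.1 under R 4.3.3 (lmFit, eBayes, two-sided, 4 residual degrees of freedom), with Benjamini-Hochberg adjustment over all genes and a threshold of 0.05. Passage and week slopes came from a second limma model with 2 residual degrees of freedom. Precision is limited by the 3 arrays in each group.

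Alternatives were quantile normalisation, median centring, a filter on dim genes, the mean of features, pseudocounts of 0 and 16, limma-trend, robust eBayes, array weights, the median shift of 24 neighbouring genes taken off, and each array left out. The members, lists and rules were chosen with earlier results of these data known. Named genes were the members, up to 3 rises and 3 falls per list, the markers, and 5 genes most like GCLM and SLC7A11; others are stated as chosen after their values were seen, as were GSTP1 and MGST2. Fits were tested on simulated data.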

Additional observations from a re-analysis of the deposited data

How the results depend on the processing

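GCLM, GSS, GPX3, GSTK1, GSTM3, HAGH, GLRX and SEPHS1 kept direction and call under all 16 alternatives. Members higher numbered 2 to 4 and members lower 0 to 1 with 1 array left out, and the latter 0 under every other alternative. Of the other glutathione genes, 16 were higher and 11 lower with array weights, 3 were lower with median centring, and 6 to 11 were higher and 2 to 5 lower with 1 array left out. The shares of all genes called under these alternatives were not counted. Whether such changes in number are particular to the glutathione genes therefore cannot be told. Members with a slope over exposure weeks, and those with a slope over passages, each numbered 0 to 1 with 1 array left out. Signs turned for SLC3A2 (0.067 with array weights, and −0.19 to 0.024 with 1 array left out, positive without the 30-week array), GPX2 (−0.79 to 0.0087 with 1 array left out, positive without the 35-week array), and, with neighbours taken off, GSR (0.065) and GGACT (0.014); the cause was not tested. Scaling moved the median over all genes from −0.06 to −0.01 with centring, and with 3 arrays per group and no detection calls, small differences and low levels cannot be resolved. No paired analysis was possible because the labels give passages and exposure weeks but no replicate numbers; the numbers 1 to 3 in each group only name the arrays in order and pair nothing.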

Other observations

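The transferase gene GSTM1, called lower in CAsE-PE, had its highest level at the earliest passage, with log2 values of 7.68, 6.74 and 6.27 at passages 18, 38 and 42 and of 5.91, 5.60 and 5.70 at 30, 33.5 and 35 weeks. Its slope over passages did not pass (limma adjusted p = 0.110).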
